A study of Mus musculus with 8 samples.

Results

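The genes described here are 9 regulators of cellular cholesterol supply: Srebf2, Scap, Insig1, Insig2, Mbtps1, Mbtps2, Mylip, Stard4 and Tmem97. They were picked by gene symbol from the annotation of the array's probe sets, and all 9 had a probe set, out of 19939 genes tested. For 8 of them the probe set carried that symbol alone. The Mbtps2 probe set is also annotated to Yy2, so its signal cannot be assigned to Mbtps2 alone. The samples were peritoneal macrophages of C57BL/6J mice, elicited with thioglycollate, an irritant that draws macrophages into the peritoneal cavity, and collected 5 days after the injection. They were kept in DMEM with serum, either unloaded (4 arrays) or with acetylated low-density lipoprotein, acLDL (4 arrays), a modified lipoprotein whose uptake by scavenger receptors fills macrophages with cholesterol. The submitters' texts give different exposures: the sample protocols state 20 µg/mL for 3 days and the design text states 50 µg/mL for 2 days. The design text calls the 4 arrays of a condition biological replicates, and which mice went into which culture is not stated.

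SREBP2, the product of Srebf2, is a transcription factor made as a membrane protein of the endoplasmic reticulum. SCAP escorts it to the Golgi when sterols are scarce, and the INSIG proteins hold SCAP back when sterols are plentiful. In the Golgi the site-1 and site-2 proteases, encoded by Mbtps1 and Mbtps2, release the part of SREBP2 that enters the nucleus and turns on genes of cholesterol synthesis and of LDL uptake. MYLIP, also called IDOL, is a ubiquitin ligase that sends the LDL receptor to degradation and is induced by the liver X receptors (LXR), which sense oxysterols. STARD4 carries cholesterol between membranes, and TMEM97 is a membrane protein that binds the cholesterol transporter NPC1.

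With acLDL, 5 of the 9 genes fell, 2 rose and 2 did not pass the test. Over all genes tested, 10.5% fell, 12.9% rose and 23.3% changed in either direction (limma, Benjamini-Hochberg adjusted p under 0.05). All 9 genes read above background, taken as the 95th percentile of olfactory receptor genes. With only genes above background tested, about 11653, 2612 rose and 1869 fell, which are larger shares than over all genes. The shares of all genes given here and below include genes under background. Rises made up 55.2% of all changed genes, 66.8% with each array centred on its median, and 43.1% after removal of a trend with genomic span, and the 7 calls among the regulators held in both settings. Insig1 fell the furthest, 3.17-fold, followed by Stard4 (2.51-fold), Srebf2 (1.78-fold), Insig2 (1.63-fold) and Tmem97 (1.30-fold). The Tmem97 fall rests on a probe set of uncertain locus, and a dimmer probe set of the gene did not pass. Mylip rose 1.88-fold and Scap 1.21-fold. The median log2 difference of the 9 genes was -0.38, against -0.0031 over all genes. That median is the value of the Tmem97 probe set of uncertain locus. By at least 1.5-fold, 4 of the 9 genes fell and 1 rose, against 0.697% and 1.33% of all genes. In 7 of the 9 genes the arrays of the groups did not overlap, as was so for 25.6% of all genes.

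**Figure D1:**
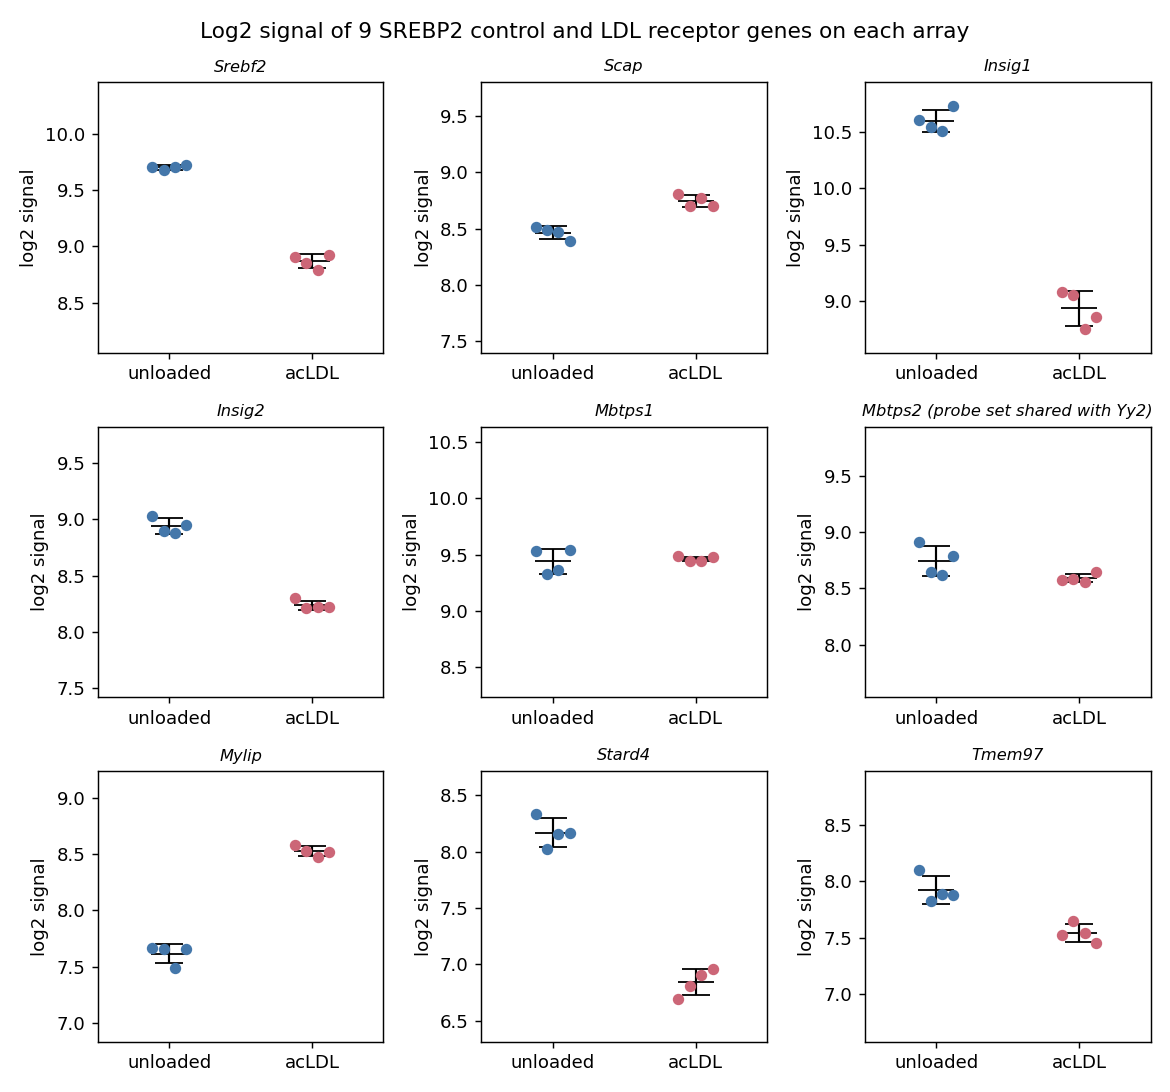
Log2 signal of each of the 9 genes on the 4 unloaded (blue) and 4 acLDL (red) arrays, with the mean and SD in black; every panel spans the same range of log2 units. The groups are apart for 7 genes and overlap for Mbtps1 and Mbtps2.

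**Figure D2:**
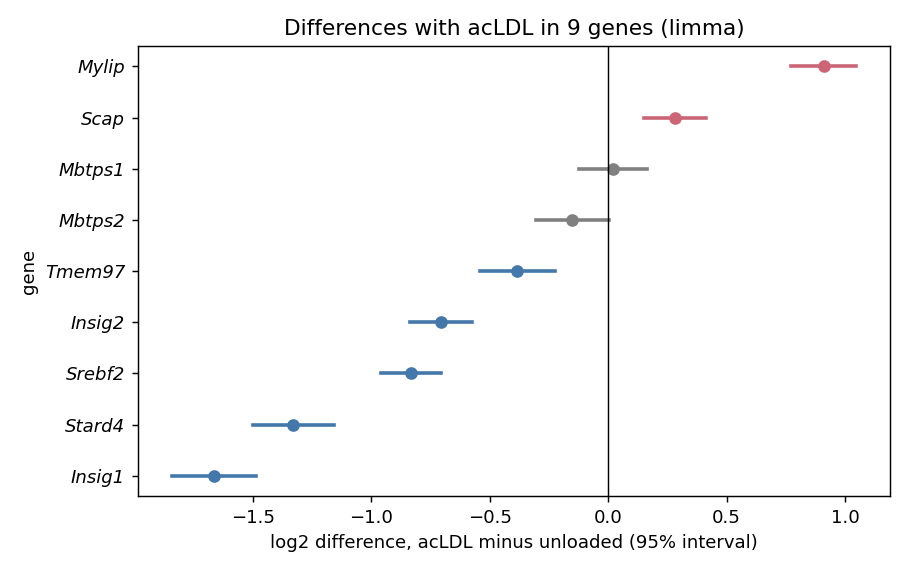
Log2 difference, acLDL minus unloaded, with its 95% interval from limma for the 9 genes, blue where the gene fell, red where it rose and grey where it did not pass. The intervals run from Insig1 at -1.66 to Mylip at 0.91.

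The bases upstream of 4 of these genes are shown: Srebf2, Insig1 and Tmem97, which fell, and Mylip, which rose. Insig2, with 3 windows, and Stard4, with none, also fell and are not shown. Each sequence is the 250 bases before the RefSeq start of the gene, 5′ to 3′ on the gene's strand. The source is the RefSeq promoter table of build GRCm38.p6. Capitals mark ATCACCCCA (the leading letters of a sterol regulatory element, the site SREBP2 binds) in Srebf2, CCAAT boxes on either strand in all 4, and the E-box CACGTG in Insig1.
Srebf2, chr15:82147019-82147268, plus strand: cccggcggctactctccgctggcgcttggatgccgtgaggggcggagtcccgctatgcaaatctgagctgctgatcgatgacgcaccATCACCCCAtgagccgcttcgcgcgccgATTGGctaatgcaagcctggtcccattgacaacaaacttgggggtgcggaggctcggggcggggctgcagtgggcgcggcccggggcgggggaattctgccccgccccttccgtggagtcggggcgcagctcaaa
Insig1, chr5:28071162-28071411, plus strand: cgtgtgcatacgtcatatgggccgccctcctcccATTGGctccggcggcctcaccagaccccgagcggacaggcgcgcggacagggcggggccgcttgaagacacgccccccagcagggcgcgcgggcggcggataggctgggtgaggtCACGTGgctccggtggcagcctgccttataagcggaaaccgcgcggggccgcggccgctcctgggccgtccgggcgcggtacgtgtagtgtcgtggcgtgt
Tmem97, chr11:78550736-78550985, minus strand: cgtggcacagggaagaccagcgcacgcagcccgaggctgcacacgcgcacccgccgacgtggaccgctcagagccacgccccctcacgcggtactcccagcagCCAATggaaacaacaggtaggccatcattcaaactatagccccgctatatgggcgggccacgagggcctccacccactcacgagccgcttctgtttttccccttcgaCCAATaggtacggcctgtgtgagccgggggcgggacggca
Mylip, chr13:45389492-45389741, plus strand: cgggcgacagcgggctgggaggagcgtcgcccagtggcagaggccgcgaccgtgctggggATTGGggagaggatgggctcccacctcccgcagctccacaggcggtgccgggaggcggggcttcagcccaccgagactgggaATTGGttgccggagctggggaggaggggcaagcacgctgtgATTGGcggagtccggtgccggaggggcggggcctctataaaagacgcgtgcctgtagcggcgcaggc

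The Srebf2 window held ATCACCCCA from 163 to 155 bases before the start, on the gene's strand. These letters were present on either strand in 0.24% of the 32851 windows of the table (several windows for a gene with several starts), and in no window of the other 7 genes with an entry. A CCAAT box, the letters bound by NF-Y, followed after 19 bases in Srebf2, on the opposite strand. CCAAT was found in 33.8% of all windows, and among the genes described here in those of Srebf2, Insig1, Tmem97 and Mylip and in 1 of 3 Insig2 windows. CACGTG, 101 to 96 bases before the Insig1 start, was found in 6.02% of windows, including 1 of 2 Scap windows. TCACNCCAC, a looser spelling that can overlap the same letters, was in 1.05% of windows and in none of these genes. These searches used the 250 bases before the start on both strands, were chosen after the values were seen, and say nothing about sites elsewhere.

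The transcription factor gene Srebf2 was the steadiest of the 7 changed regulators among unloaded arrays. Its log2 signal was 9.70, 9.68, 9.70 and 9.72 on unloaded arrays 1 to 4, and 8.91, 8.85, 8.79 and 8.93 on acLDL arrays 1 to 4. All 4 acLDL arrays lay below all unloaded arrays, and the fall of 0.83 ± 0.06 (log2, SE; limma adjusted p = 6.79e-07) had a 95% interval from -0.96 to -0.71. Only 37 of the 19939 genes had a lower log2 difference. An additional probe set lists Srebf2 with 3 other genes, and its difference was -0.20 ± 0.07 (log2, SE; limma adjusted p = 0.0585 over all annotated probe sets), which did not pass. Srebf2 is on chromosome 15, but 19 of the 20 annotated probe sets nearest in number to this one were of genes on chromosome 7, so that its locus is uncertain and it may not measure Srebf2. The microRNA gene Mir33 lies within the span of Srebf2 and its product miR-33-5p is known to repress Abca1. Its mature sequence, with the seed (bases 2 to 8) in capitals, is
miR-33-5p: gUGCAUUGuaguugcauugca
The Mir33 probe set read 3.66 to 3.96 on unloaded and 3.84 to 4.09 on acLDL arrays, below 6.12, the 95th percentile of 1027 olfactory receptor genes, which served as a measure of background. At that signal no change of the microRNA precursor was detectable (difference 0.15 ± 0.08, log2, SE; limma adjusted p = 0.232).

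The paralogue of Srebf2, Srebf1, encodes SREBP1, which drives fatty acid synthesis, and it changed in the other direction, by 0.21 ± 0.06 (log2, SE; limma adjusted p = 0.0189). Within arrays, the log2 signal of Srebf2 minus that of Srebf1 was 1.21 ± 0.02 in unloaded and 0.17 ± 0.06 in acLDL cells (SD, n = 4). The difference between these changes was -1.04 (two-sided exact permutation p = 0.0286, the smallest that 4 against 4 arrays allow; 0.0286 after adjustment over 5 gene pairs). Srebf2 fell and Srebf1 rose, each without overlap, so this p could take no other value. It adds nothing to the separate results of Srebf2 and Srebf1. Within-array differences between genes carry their probes' own brightness, so only their shift between groups is read.

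Among the inhibitors, Insig1 and Insig2 both fell. Insig1 read 10.61, 10.54, 10.51 and 10.73 on unloaded arrays 1 to 4, and 9.08, 9.05, 8.75 and 8.86 on acLDL arrays 1 to 4. The gap between the groups was far wider than either group's spread, and only 4 genes of all tested had a lower log2 difference than its -1.66 ± 0.08 (log2, SE; limma adjusted p = 1.79e-08). Insig2 read 9.03, 8.90, 8.88 and 8.95 on unloaded arrays 1 to 4, and 8.30, 8.21, 8.22 and 8.22 on acLDL arrays 1 to 4. Its groups were also apart, with a difference of -0.70 ± 0.06 (log2, SE; limma adjusted p = 4.32e-06) and a 95% interval from -0.83 to -0.57. Insig1 fell further than Insig2: the log2 signal of Insig1 minus that of Insig2 went from 1.66 ± 0.09 to 0.70 ± 0.14 (SD, n = 4), a shift of -0.96 (two-sided exact permutation p = 0.0286; 0.0286 after adjustment over 5 pairs). The gap between the groups in Insig1 was wider than the whole range of Insig2, so this p could only be the smallest possible. It adds nothing to the separate results of Insig1 and Insig2.

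The escort gene Scap went the other way. It read 8.52, 8.48, 8.47 and 8.39 on unloaded arrays 1 to 4, and 8.81, 8.70, 8.77 and 8.70 on acLDL arrays 1 to 4. Every acLDL array was above every unloaded array, and the rise was 0.28 ± 0.06 (log2, SE; limma adjusted p = 0.00447; 95% interval 0.15 to 0.41). The log2 signal of Scap minus that of Insig1 moved from -2.13 ± 0.14 to -0.19 ± 0.16 (SD, n = 4), a shift of 1.94 (two-sided exact permutation p = 0.0286; 0.0286 after adjustment over 5 pairs). Because Scap rose and Insig1 fell, each without overlap, this p could only be the smallest possible. It adds nothing to the separate results of Scap and Insig1.

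The genes of the activating proteases did not pass the test. Mbtps1, the site-1 protease gene, read 9.54, 9.33, 9.36 and 9.54 on unloaded arrays 1 to 4, and 9.48, 9.44, 9.44 and 9.47 on acLDL arrays 1 to 4. The acLDL values lay inside the range of the unloaded ones, whose arrays 1 and 4 were higher than arrays 2 and 3. Its difference was 0.02 ± 0.07 (log2, SE; limma adjusted p = 0.860), with a 95% interval from -0.12 to 0.16. Mbtps2, the site-2 protease gene on the probe set shared with Yy2, read 8.91, 8.64, 8.62 and 8.79 on unloaded arrays 1 to 4. It read 8.58, 8.58, 8.56 and 8.65 on acLDL arrays 1 to 4, so that acLDL array 4 overlapped the lower pair of unloaded arrays. Its difference of -0.15 ± 0.07 (log2, SE; limma adjusted p = 0.158) had a 95% interval from -0.31 to 0.0048. Without unloaded arrays 2 and 3 the Mbtps2 difference was -0.26 and passed (limma adjusted p = 0.0208), and without unloaded arrays 1 and 4 it was -0.04 (limma adjusted p = 0.680). It also passed after repeated quantile normalisation (-0.17; limma adjusted p = 0.0425) and cyclic loess (-0.17; limma adjusted p = 0.0438). The log2 signal of Mbtps1 minus that of Mbtps2 rose by 0.17 between groups without overlap (two-sided exact permutation p = 0.0286; 0.0286 after adjustment over 5 pairs). All 5 pairs had this smallest possible p, so the adjustment could change nothing. Neither gene passed alone and Yy2 shares the Mbtps2 probe set, so the shift cannot be assigned to the protease genes.

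**Figure D3:**
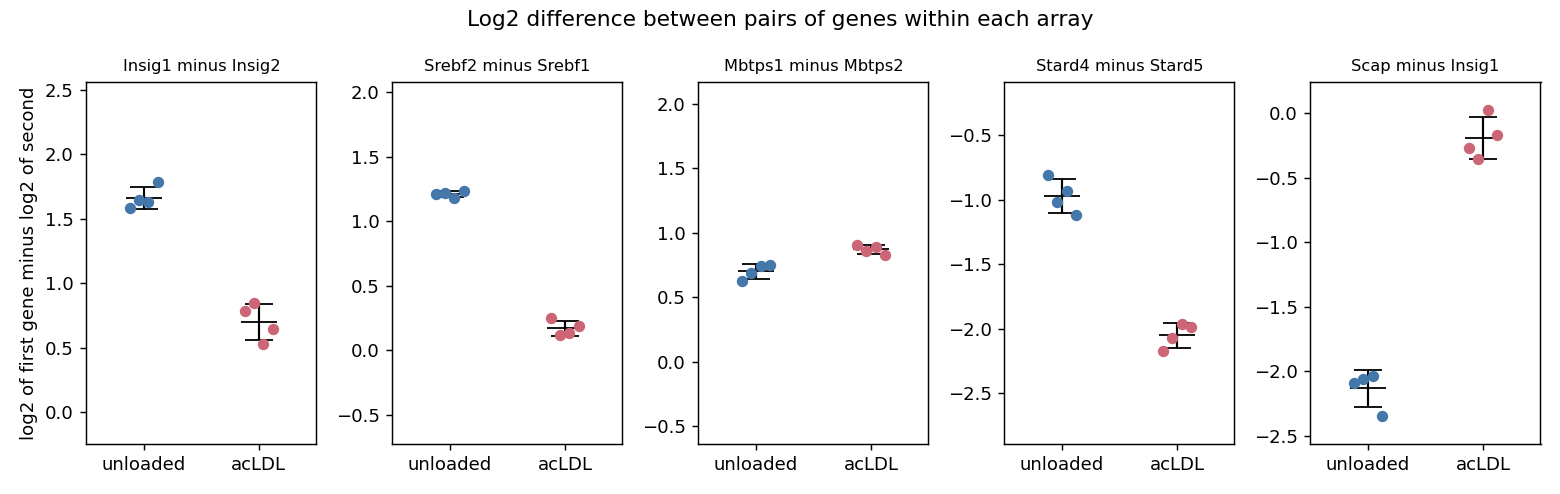
Log2 signal of one gene minus that of another on each array, for 5 pairs, with 4 unloaded (blue) and 4 acLDL (red) arrays and the mean and SD in black. Each panel spans the same range; the shift between groups runs from 0.17 for Mbtps1 and Mbtps2 to 1.94 for Scap and Insig1.

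Mylip, the ligase gene for lipoprotein receptors, was the larger of the rises. It read 7.67, 7.65, 7.49 and 7.65 on unloaded arrays 1 to 4, and 8.58, 8.53, 8.48 and 8.51 on acLDL arrays 1 to 4. The groups were apart by more than their spread even with unloaded array 3 as the lowest value, and the difference was 0.91 ± 0.06 (log2, SE; limma adjusted p = 6.17e-07; 95% interval 0.77 to 1.05). Of all genes tested, 56 had a higher log2 difference.

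Stard4 and Tmem97, of sterol transport, fell by unlike amounts. Stard4 read 8.34, 8.02, 8.15 and 8.16 on unloaded arrays 1 to 4, and 6.69, 6.81, 6.91 and 6.96 on acLDL arrays 1 to 4. Its groups were more than a log2 unit apart, the difference was -1.33 ± 0.08 (log2, SE; limma adjusted p = 1.31e-07), and 11 genes had a lower one. Stard5, which encodes a related sterol-binding protein, fell by 0.25 ± 0.07 (log2, SE; limma adjusted p = 0.0151). The log2 signal of Stard4 minus that of Stard5 shifted by -1.08 (two-sided exact permutation p = 0.0286; 0.0286 after adjustment over 5 pairs). The gap between the groups in Stard4 was wider than the whole range of Stard5, so this p could only be the smallest possible. It adds nothing to the separate results of Stard4 and Stard5.

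Tmem97 read 8.10, 7.82, 7.88 and 7.88 on unloaded arrays 1 to 4, and 7.53, 7.65, 7.54 and 7.45 on acLDL arrays 1 to 4. The groups did not overlap, and the fall was 0.38 ± 0.07 (log2, SE; limma adjusted p = 0.00194). This value rests on the brighter of 2 probe sets annotated to Tmem97. The dimmer one read 6.81, 6.37, 6.39 and 6.47 on unloaded and 6.22, 6.36, 6.19 and 6.28 on acLDL arrays 1 to 4, a difference of -0.25 ± 0.09 (log2, SE; limma adjusted p = 0.0668 over all annotated probe sets) that did not pass. Tmem97 is a gene of chromosome 11, and the 20 annotated probe sets nearest in number to the dimmer one were all of genes on chromosome 11. For the brighter one, 17 of the nearest 20 were of genes on chromosome 16, so that the locus it was designed to is uncertain.

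In the wider machinery around SREBP cleavage and turnover most genes did not pass, and those that did went both ways. Of 28 genes listed for SREBP transport, processing and degradation, 25 were measured: 6 rose, 4 fell and 15 did not pass, where 12.9% of all genes rose and 10.5% fell. All but 1 of the 25 read above background, where the shares of rises and falls were larger than over all genes. The median log2 difference was 0.09. Among those that rose were Rnf145 (0.36 ± 0.08, log2, SE), a ubiquitin ligase gene of the endoplasmic reticulum that is an LXR target, the COPII coat gene Sec31a (0.30 ± 0.06) and the protease gene Furin (0.27 ± 0.07). Ufd1, whose product helps extract ubiquitinated proteins from the membrane, fell by 0.51 ± 0.06, the COPII GTPase gene Sar1a by 0.36 ± 0.07 and Erlin1, encoding a protein that binds SREBP complexes, by 0.30 ± 0.09 (log2, SE). The limma adjusted p of these 6 genes ran up to 0.0236, for Erlin1, the single one of them whose groups overlapped.

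Other substrates of the site-1 and site-2 proteases include further membrane-bound transcription factors. Of 9 measured, 1 rose, 1 fell and 7 did not pass, a share close to the 23.3% of all genes that changed, and the median log2 difference was 0.07. The pair that passed is given as single genes. Atf6, a sensor of unfolded proteins, fell by 0.29 ± 0.06 (log2, SE; limma adjusted p = 0.00490), from 9.24 to 9.43 on unloaded arrays to at most 9.10 on acLDL arrays. Its paralogue Atf6b rose by 0.53 ± 0.07 (log2, SE; limma adjusted p = 0.000113), from 8.51 to 8.68 on unloaded arrays to between 9.05 and 9.27 on acLDL arrays. Neither gene's groups overlapped.

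Genes of the LDL receptor family and of receptor handling also split. Of 21 listed, 18 were measured and 3 were not analysed here. Of those measured, 7 rose, 4 fell and 7 did not pass, where 12.9% of all genes rose and 10.5% fell. The median log2 difference was 0.09. The rises were led by Dab2, a clathrin adaptor for lipoprotein receptors (0.60 ± 0.07, log2, SE), the sorting receptor gene Sort1 (0.50 ± 0.08) and Ccdc22 (0.41 ± 0.06), of the complex that recycles receptors from endosomes. Its partner Ccdc93 fell by 0.23 ± 0.06, Hnrnpd, an RNA-binding protein gene, by 0.53 ± 0.08, and Lrp8, a receptor of the family, by 0.23 ± 0.06 (log2, SE). The limma adjusted p of these 6 genes was at most 0.0138. The adaptor gene Snx17, Washc1, Lrp1 and Commd1 made up the rest of the rises and Ube2d3 that of the falls.

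Of 20 measured genes of sterol movement inside the cell, 3 rose, 5 fell and 12 did not pass, where 12.9% of all genes rose and 10.5% fell, so that the share of rises was close to that of all genes. The median log2 difference was -0.03. Gramd1b, which encodes a carrier of plasma membrane cholesterol to the endoplasmic reticulum, rose by 0.57 ± 0.06 (log2, SE; limma adjusted p = 1.28e-05), from 8.83 to 8.88 on unloaded arrays to between 9.39 and 9.47 on acLDL arrays. Osbp, the oxysterol-binding protein gene, rose by 0.38 ± 0.08 and Stard3nl by 0.30 ± 0.08 (log2, SE), the latter with overlapping groups. Osbpl2 fell by 0.38 ± 0.06, Scp2 by 0.35 ± 0.07 and the lysosomal lipase gene Lipa by 0.27 ± 0.06 (log2, SE). The transporter gene Npc1, whose product TMEM97 binds, did not pass, at a difference of -0.13 ± 0.06 (log2, SE; limma adjusted p = 0.132).

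Genes downstream of SREBP2 and of LXR stood beside the 9 regulators. Of 18 measured sterol synthesis enzymes 15 fell, 0 rose and 3 did not pass, against 10.5% of all genes that fell, with a median log2 difference of -1.37. The falls of Insig1 and Stard4 lay within the range of these enzymes, whose extremes were -2.45 and -0.06, and that of Srebf2 was smaller than the median. Of 11 measured genes listed for LXR, its partner receptors and targets, 8 rose, 0 fell and 3 did not pass. Of all genes, 12.9% rose. The list's median log2 difference was 0.33. Nr1h4, among those that did not pass, encodes the farnesoid X receptor, not an LXR, and read below background. Srebf1 is counted both here and in the SREBP processing list. The rise of Mylip exceeded that of each of the 11 genes except the exporter gene Abca1 (1.93 ± 0.06, log2, SE; limma adjusted p = 7.70e-10). The LXR alpha gene Nr1h3 rose by 0.66 and Rxra, its partner receptor, by 0.56 on the log2 scale. These directions were known when the lists were drawn up, so the counts are descriptions.

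**Figure D4:**
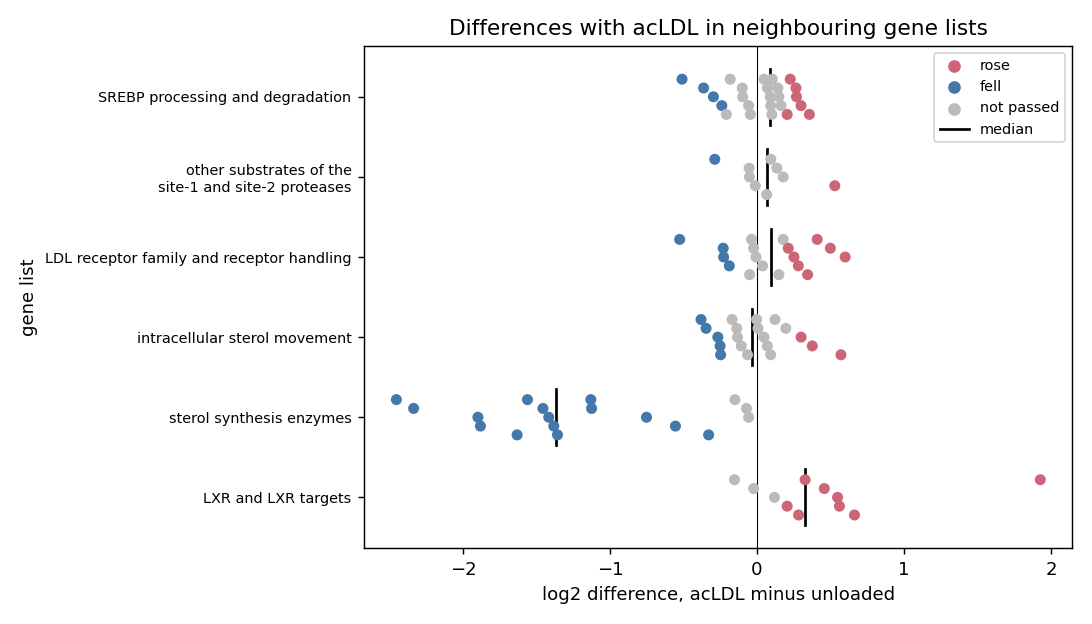
Log2 difference, acLDL minus unloaded, of each measured gene in 6 lists, coloured by whether it rose, fell or did not pass in limma, with the list's median as a black line. The enzymes lie to the left of 0, with a median of -1.37, and the lists of SREBP processing, receptor handling and sterol movement lie on both sides of it.

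Over the 8 arrays, the closest profiles among 11653 other genes above background were ranked by Pearson's r, which here mostly reflects the step between the groups. The profile of Srebf2 was closest to Hmgcs1 (r = 0.997, 8 arrays), an enzyme of the mevalonate pathway, then Serinc1 and Clec7a. For Insig1 the closest were Aph1c (r = 0.998), Klhl24 and the lanosterol demethylase gene Cyp51. Stard4 was closest to Msl2 (r = 0.996), Abcf3 and Elovl6, and Insig2 to Mmp14 (r = 0.998), Mtus1 and Sgpl1. Mylip was closest to Park7 (r = 1.000 after rounding), Map2k2 and Ints1, Scap to Ptov1 (r = 0.992), Ttyh3 and Zfp385a, and Tmem97 to Insr (r = 0.990), Atp1b3 and Metap2.

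All 8 macrophage markers checked, Csf1r and Adgre1 among them, read above background. Of these, Fcgr1, Itgam, Adgre1 and Mertk rose by 0.71, 0.63, 0.59 and 0.33 and Cd14 fell by 0.33 on the log2 scale. Their summed linear signal was 20253 to 21674 on unloaded and 21773 to 22563 on acLDL arrays, without overlap, and its part in the results above was not tested. Of the other cells' markers, all 6 of fibroblasts and stroma did too, of which Sparc rose and Col1a2 and Dcn fell. Their summed linear signal was 5098 to 6323 on unloaded and 4823 to 5409 on acLDL arrays, and their part in the results above was not tested. For B cells 0 of 4 measured markers exceeded background, and for neutrophils, eosinophils, mast cells, dendritic cells, T and NK cells and endothelium 1 each, and for mesothelium 2 of 4. Kdr, the endothelial marker above background, fell by 0.29 on the log2 scale (limma adjusted p = 0.00808). The neutrophil markers Ly6g and Camp also passed as falls, by 0.32 and 0.26, but read below background. The part of these markers in the results was not tested. The eosinophil marker Siglecf, which read 7.97 ± 0.13 (log2, SD, n = 4) unloaded, fell by 0.60 on the log2 scale, and the other 4 eosinophil markers, Epx, Prg2, Ear6 and Ccr3, did not pass. The summed linear signal of the 5 was 417 to 450 on unloaded and 334 to 364 on acLDL arrays, a sum in which Siglecf is the single marker above background, and its part in the results was not tested. In RNA of a whole culture, fewer cells of a kind and less RNA per cell cannot be told apart. On principal component 1 the arrays fell into their groups, and component 2 set unloaded arrays 1 and 4 apart from unloaded arrays 2 and 3, the split also seen in Mbtps1 and Mbtps2. The deviation of genes from their mean over arrays correlated with genomic span at 0.23 and 0.21 (Spearman) on unloaded arrays 1 and 4. On all other arrays, of both groups, this correlation was negative, from -0.20 to -0.0091. Its part in the split and in the differences between groups was not tested.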

How the data were processed

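Biotin-labelled material from the RNA of 8 macrophage samples was hybridised to Affymetrix arrays, 1 array per sample. The deposited values are log2 signals made by the authors with RMA, per the submitters' processing notes, which corrects background, equalises the arrays and summarises each probe set. The RMA settings behind the table are unstated. RMA compresses the changes of dim genes and hides a change that all genes share. Of 35557 probe sets, 23410 were annotated, 21789 of them with 1 gene symbol. Each gene took its probe set with the highest mean, and with the shared Mbtps2 probe set 19939 genes were tested. Entrez identifiers changed 0 symbols in the RefSeq table of GRCm38.p6.

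Differences, acLDL minus unloaded, were fitted in limma (version 3.58.1, under R 4.3.3; lmFit, eBayes, two-sided, all 8 arrays, no block), with Benjamini-Hochberg adjustment over all genes, and the step was tested on simulated data. Single contrasts used exact permutation tests. Of 6 planned gene pairs, 5 were tested and the other is not analysed here. The genes and lists were chosen with earlier results of these data known. All 9 regulators are named, with up to 3 rises and 3 falls per list; Snx17, Washc1, Lrp1, Commd1, Ube2d3, Npc1, Mir33 and the markers were added after their values were seen. Alternatives left out arrays, added a replicate block or varied normalisation, filter, probe sets and variance model. Figures used matplotlib 3.10.9 in Python 3.11.15. The number of arrays limits the precision, with a median SE of 0.074 (log2).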

Additional observations from a re-analysis of the deposited data

Results flagged for a closer look

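In 2 of 18 sets of 4 arrays (9 genes, 2 groups) 1 array lay far from the other 3 relative to the group's whole range, where chance gives about 1 in 20. Mylip on unloaded array 3 read 7.49, below the other unloaded arrays at 7.65 to 7.67. Insig2 on acLDL array 1 read 8.30, above the other acLDL arrays at 8.21 to 8.22. Both arrays stayed on their own group's side of the gap between the groups.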

How the results depend on the processing

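All 7 changed regulators kept their direction and their call under the 21 alternatives run, with a limma adjusted p of at most 0.0184. No alternative used the dimmer Tmem97 probe set alone, which did not pass (-0.25; limma adjusted p = 0.0668 over all annotated probe sets). Mbtps2 passed in 3 of the alternatives: without unloaded arrays 2 and 3 (-0.26), after repeated quantile normalisation (-0.17) and after cyclic loess (-0.17). The cause was not tested. The 5 gene pairs kept their direction, but their exact tests cannot pass with 2 against 4 arrays (smallest p 0.0667) or with the replicate block (smallest p 0.125). Without unloaded arrays 1 and 4, the shifts were -0.94 (Insig1 minus Insig2), -1.03 (Srebf2 minus Srebf1), 0.16 (Mbtps1 minus Mbtps2), -1.07 (Stard4 minus Stard5) and 1.86 (Scap minus Insig1). Without unloaded arrays 2 and 3 they were -0.98, -1.05, 0.18, -1.09 and 2.03 in the same order. With the replicate block they were -0.96, -1.04, 0.17, -1.08 and 1.94. The block changed the call of none of the 9 regulators, and the correlation of deviations between arrays of equal number was 0.11, -0.16, 0.30 and 0.14, so the numbers were not taken as pairs. Of all genes, 4650 changed, 405 by at least 1.5-fold. Over all annotated probe sets the latter count was 624. Over all deposited probe sets 7603 changed, 4038 of them lower against 2085 among genes, and 1524 by at least 1.5-fold, and rises were 46.9% of the changed features in place of 55.2%; the cause was not tested. Removing a trend with genomic span was an alternative chosen after seeing the data, and changed no call of the 9 regulators. Signals near the olfactory background of 6.12, as for Mir33, allow no statement on change.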
